A study of Homo sapiens with 24 samples.

Results

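The genes described here encode 10 proteins of the endoplasmic reticulum (ER), most of which fold or trim newly made proteins. The genes are HSPA5, HSP90B1, CALR, CANX, GANAB, PDIA3, PDIA4, PDIA6, ERP29 and MYDGF. They are 10 of the 20046 genes with a probe on the Illumina HumanHT-12 V4 array, and 13 of its 47231 probes, because CANX has 2 probes and ERP29 has 3. The members were chosen by name with the HL-60 values in view, above all the change with 5-Aza-CdR and the way the 2 drugs combined. Their HL-60 differences are therefore given as measurements with standard errors and without tests, while their values on the other arrays were tested.

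Bulk RNA was measured on 24 arrays, 8 for each of 3 established cancer lines: HL-60, a promyelocytic leukemia line, T24, from a bladder carcinoma, and HCT116, from a colorectal carcinoma. Each line had 4 conditions with 2 arrays each: the combination, 5-Aza-CdR alone, clorgyline alone and an untreated control. 5-Aza-CdR, an inhibitor of DNA methyltransferases, was given once for 24 hours, at 0.1 µM to HL-60, 1 µM to T24 and 0.3 µM to HCT116. Clorgyline, a monoamine oxidase inhibitor used here against the histone demethylase LSD1, was given daily at 10 µM, and RNA came from day 18 in HL-60 and T24 and from day 20 in HCT116. The labels number the 2 arrays of a condition but do not say that they came from separate cultures, so the errors measure the spread between these arrays, which may be technical.

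The values are log2 normalized intensities, on which 1 unit is a doubling, and each line was normalized on its own. The median HL-60 probe was at 7.53, which marks the level near which a probe carries little signal. On the HL-60 arrays MPO, the myeloperoxidase of myeloid granules, averaged 15.8 to 15.9 by condition, whereas PTPRC was near the median probe in all 4 conditions. ELANE was near it in controls and with clorgyline (7.42 and 7.45), and LYZ with clorgyline (7.56). The markers PRTN3, AZU1, CTSG, MYB and SPN were well above it in all conditions. The other labels matched their markers only in part. Arrays labelled T24 had EPCAM, an epithelial adhesion gene, at 12.6 in controls, and KRT7, TM4SF1, TGFBI and S100A2 near their median probe of 8.10. On the same controls the other T24 markers were above it, CAV1 at 11.5, CAV2 at 10.1, VIM at 10.1 and AXL at 9.48, and of the other HCT116 markers VIL1, LGALS4 and CDH17 were near it, while CDH1, CDX2, ELF3 and CLDN3 were between 8.43 and 8.60. The HCT116-labelled controls had KRT7 at 11.7, TM4SF1 at 11.9 and EPCAM at 7.86 against a median probe of 7.69, while the 6 treated HCT116-labelled arrays had high EPCAM. Arrays labelled T24 correlated at a median r of 0.985 with the 6 treated HCT116-labelled arrays and 0.909 with the 2 HCT116-labelled controls. Among conditions, the HCT116-labelled clorgyline arrays were closest to the T24-labelled 5-Aza-CdR and combination arrays (median r of 0.988 with each), and the HCT116-labelled 5-Aza-CdR arrays to the T24-labelled clorgyline arrays (0.993). The HCT116-labelled combination arrays were closest to the T24-labelled clorgyline and control arrays (0.990 with each) and least like the T24-labelled combination arrays (0.973), so that the treatment labels of the HCT116-labelled arrays are also open to doubt. These arrays are called by their labels below, and HCT116-labelled arrays were compared only among the treated conditions.

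Proteins that enter the ER are folded there by an Hsp70 chaperone and an Hsp90 chaperone, by the lectin chaperones that hold sugar-tagged proteins, and by disulfide isomerases that form and reshuffle disulfide bonds. When unfolded proteins build up, the sensors ATF6, IRE1 and PERK start the unfolded protein response, and ATF6 and the spliced form of XBP1 raise transcription of chaperone genes. In many chaperone promoters these factors, together with NF-Y, use the ER stress response element, a CCAAT box and a CCACG box held apart by a fixed spacer.

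The promoters of the members were read for that element because the members formed groups with different values in HL-60. Of the 10 members, 9 had a window in the RefSeq promoter table (build GRCh38.p14), which covers 250 bases before to 50 bases after each annotated start, and PDIA3 had none. The ER stress response element was searched on both strands as CCAAT, then any 9 bases, then CCACG. It was present in 27 of all 35116 windows of 300 bases (0.0769%) and in windows of 5 of the 9 members. The share is counted by window and the members by gene, some with several windows. Because the element is one of chaperone promoters, its presence in these genes is a description and not a test. The matches are printed below with the CCAAT and CCACG boxes in capitals and the 9-base spacer in lower case, each on the strand that carries the match.
HSPA5, chr9:125241391-125241409, minus strand: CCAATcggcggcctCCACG
HSP90B1, chr12:103930216-103930234, plus strand: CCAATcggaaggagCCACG
HSP90B1, chr12:103930321-103930339, minus strand: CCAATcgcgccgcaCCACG
CALR, chr19:12938384-12938402, minus strand: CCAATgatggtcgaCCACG
CANX, chr5:179698778-179698796, plus strand: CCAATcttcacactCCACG
PDIA6, chr2:10812853-10812871, minus strand: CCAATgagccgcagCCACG

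The windows of GANAB, ERP29, MYDGF and PDIA4 did not hold these letters. CANX had 4 windows, from different annotated starts, and PDIA4 and PDIA6 had 2 each. The related elements ERSE-II (ATTGG, any 1 base, then CCACG, in 0.0541% of all windows) and UPRE (TGACGTGG, in 0.729%) were in none of the 9 members' windows. A match is a description of the window and not a measurement of binding. The whole windows of HSPA5, which was higher with 5-Aza-CdR in HL-60, and of GANAB, which was lower, are shown for comparison, 5′ to 3′ on the gene's strand, with the element of HSPA5 in capitals.
HSPA5, chr9:125241294-125241593, minus strand: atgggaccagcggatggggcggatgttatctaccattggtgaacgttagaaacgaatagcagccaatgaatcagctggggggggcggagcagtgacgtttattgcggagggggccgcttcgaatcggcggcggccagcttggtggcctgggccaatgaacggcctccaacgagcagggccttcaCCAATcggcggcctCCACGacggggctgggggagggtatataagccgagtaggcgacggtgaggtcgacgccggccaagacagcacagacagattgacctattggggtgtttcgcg
GANAB, chr11:62646564-62646863, minus strand: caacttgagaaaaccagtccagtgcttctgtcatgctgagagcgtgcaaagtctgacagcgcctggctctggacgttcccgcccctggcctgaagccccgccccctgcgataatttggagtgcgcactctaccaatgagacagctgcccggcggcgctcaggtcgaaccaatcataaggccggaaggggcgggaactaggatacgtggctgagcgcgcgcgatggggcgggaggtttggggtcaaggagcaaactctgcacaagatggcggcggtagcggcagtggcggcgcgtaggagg

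In HL-60, 6 members were higher on all 4 arrays that had received 5-Aza-CdR, with or without clorgyline, than on the 4 that had not. They were HSPA5, HSP90B1, CALR, CANX, PDIA4 and PDIA6, with 7 probes. Over all 47229 probes measured in HL-60, 6.39% were separated in this way. The separation is one of the values that chose the members, so no more is read from it. The other members, GANAB, ERP29 and MYDGF, were lower than control with 5-Aza-CdR alone and with clorgyline alone, and PDIA3 stayed near the median probe.

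HSPA5 (BiP), the Hsp70 chaperone of the ER and the usual marker of the unfolded protein response, had 12.72 and 12.82 with the combination, 12.78 and 12.74 with 5-Aza-CdR, 11.39 and 11.33 with clorgyline, and 11.47 and 11.26 in controls. The 4 arrays with 5-Aza-CdR lay above the other 4 with a gap far wider than the spread within any pair. The difference from control was 1.40 ± 0.09 (SE) on the log2 scale with the combination, or 2.64-fold, 1.39 ± 0.09 with 5-Aza-CdR and -0.01 ± 0.09 with clorgyline.

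HSP90B1 (GRP94), the Hsp90 chaperone of the ER, had 15.10 and 15.37 with the combination, 15.52 and 15.51 with 5-Aza-CdR, 14.08 and 13.98 with clorgyline, and 14.56 and 14.25 in controls. Its highest arrays were those given 5-Aza-CdR alone and its lowest those given clorgyline alone. Against control the differences were 0.83 ± 0.12 with the combination, 1.11 ± 0.12 with 5-Aza-CdR and -0.37 ± 0.12 with clorgyline (log2, SE).

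CALR (calreticulin), a soluble lectin chaperone that binds sugar-tagged proteins and calcium, had 13.80 and 14.05 with the combination, 13.60 and 13.77 with 5-Aza-CdR, 12.31 and 12.42 with clorgyline, and 12.58 and 12.84 in controls. The order was combination, 5-Aza-CdR, control, clorgyline, with no overlap between neighbouring pairs. Its differences from control were 1.22 ± 0.12, or 2.33-fold, with the combination, 0.98 ± 0.12 with 5-Aza-CdR and -0.34 ± 0.12 with clorgyline.

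CANX (calnexin), the lectin chaperone in the ER membrane, differed less. Its probe ILMN_2401057 had 12.32 and 12.20 with the combination, 12.25 and 12.18 with 5-Aza-CdR, 11.74 and 11.74 with clorgyline, and 11.92 and 11.68 in controls. The probe ILMN_1762825 had 11.76 and 11.99 with the combination, 12.21 and 12.35 with 5-Aza-CdR, 11.36 and 11.61 with clorgyline, and 11.66 and 11.30 in controls. The 2 probes differed in how the combination stood to 5-Aza-CdR alone: the first had overlapping pairs (difference 0.05), and the second was 0.41 lower with the combination. For ILMN_1762825 the lowest combination array was only just above the highest control array, and the difference between combination and control was 0.21 without control replicate 2 and 0.57 without control replicate 1, against 0.39 with both.

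PDIA6 and PDIA4 are disulfide isomerases. PDIA6 had 12.17 and 12.29 with the combination, 12.34 and 12.06 with 5-Aza-CdR, 11.01 and 11.05 with clorgyline, and 10.94 and 11.18 in controls. Its combination and 5-Aza-CdR pairs overlapped, as did its clorgyline and control pairs. PDIA4 had 9.18 and 9.21 with the combination, 8.84 and 8.80 with 5-Aza-CdR, 8.14 and 7.91 with clorgyline, and 8.01 and 7.96 in controls. In PDIA4 both combination arrays were above both 5-Aza-CdR arrays, by 0.38 on average. Against control PDIA6 differed by 1.17 ± 0.11 with the combination and 1.14 ± 0.11 with 5-Aza-CdR, and PDIA4 by 1.21 ± 0.09 and 0.84 ± 0.09 in that order. PDIA3 (ERp57), the isomerase that works with the lectin chaperones, ranged from 7.47 to 7.72 over the 8 arrays, around the median probe, and its probe says little about the gene's level.

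**Figure D1:**
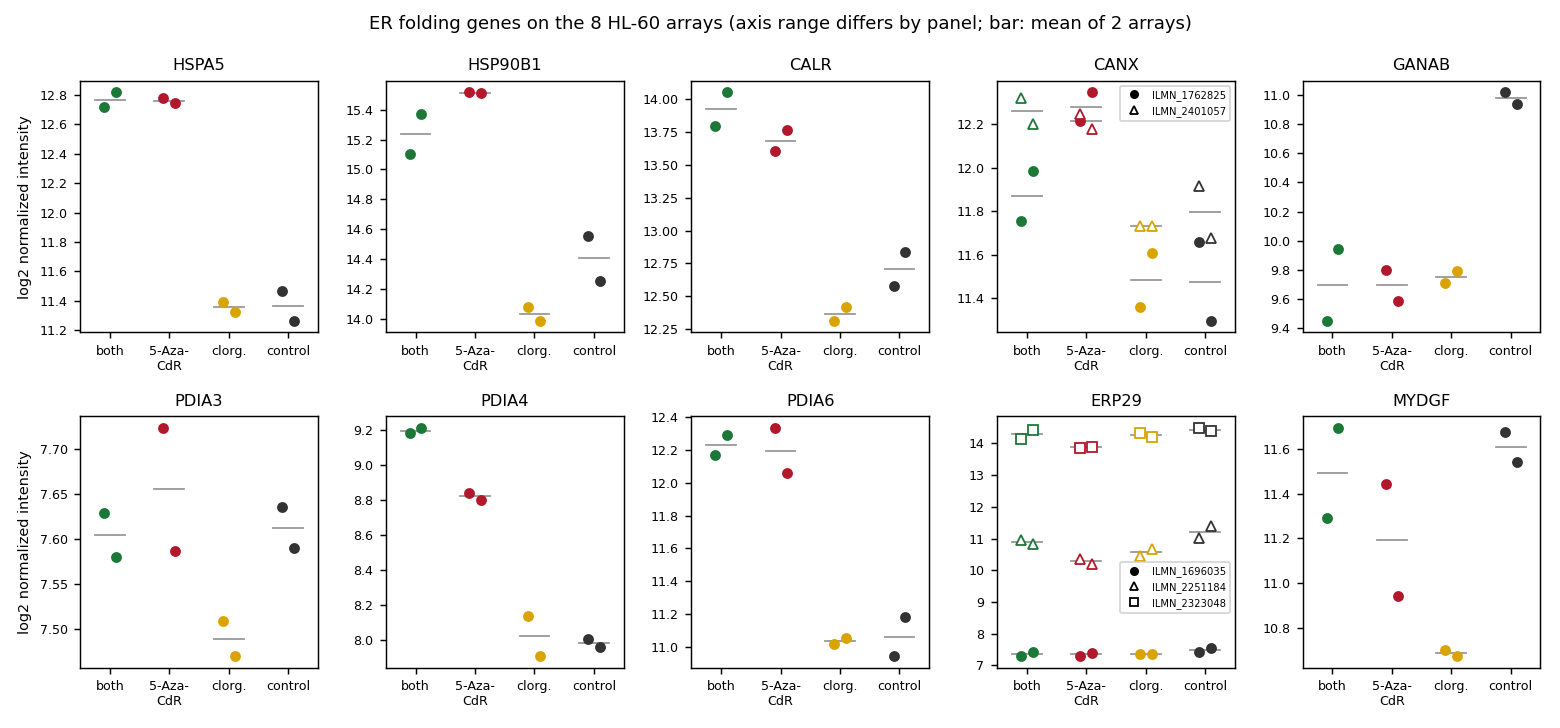
Levels of the 10 member genes on the 8 HL-60 arrays, in log2 normalized intensity on the y axis, for both drugs, 5-Aza-CdR, clorgyline and control on the x axis. Each point is 1 array, marker shapes are probes and grey bars are the means of 2 arrays. HSPA5, HSP90B1, CALR, CANX, PDIA4 and PDIA6 are higher on the 4 arrays with 5-Aza-CdR, and GANAB is at 9.45 to 9.95 on all 6 treated arrays against 10.94 and 11.02 in controls.

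GANAB, the catalytic subunit of glucosidase II, which trims glucose from glycans so that glycoproteins can enter and leave the lectin cycle, had 9.45 and 9.95 with the combination, 9.80 and 9.59 with 5-Aza-CdR, 9.71 and 9.79 with clorgyline, and 11.02 and 10.94 in controls. All 6 treated arrays were lower than both controls, and the 3 treatments overlapped one another. The differences from control were -1.28 ± 0.14 with the combination, -1.28 ± 0.14 with 5-Aza-CdR and -1.23 ± 0.14 with clorgyline, or 2.43-fold, 2.44-fold and 2.34-fold lower. PRKCSH, which encodes the beta subunit of the same enzyme, differed by -0.27 with the combination (adjusted p = 0.212) and by -0.31 with 5-Aza-CdR (adjusted p = 0.162), which did not pass the test, and by 0.29 with clorgyline (adjusted p = 0.391, limma with Benjamini-Hochberg adjustment over all probes).

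MYDGF, a secreted growth factor that also resides in the ER, had 11.29 and 11.69 with the combination, 11.44 and 10.94 with 5-Aza-CdR, 10.70 and 10.67 with clorgyline, and 11.67 and 11.54 in controls. The combination pair overlapped the control pair, and the clorgyline pair was the lowest. MYDGF differed from control by -0.12 ± 0.16 with the combination, -0.41 ± 0.16 with 5-Aza-CdR and -0.92 ± 0.16 with clorgyline.

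ERP29, an ER protein related to the disulfide isomerases that helps secretory proteins along, was read by 2 probes above background. ILMN_2251184 had 10.96 and 10.83 with the combination, 10.36 and 10.20 with 5-Aza-CdR, 10.45 and 10.68 with clorgyline, and 11.01 and 11.39 in controls. ILMN_2323048 had 14.14 and 14.42 with the combination, 13.86 and 13.87 with 5-Aza-CdR, 14.32 and 14.19 with clorgyline, and 14.49 and 14.38 in controls. Both probes were lowest with 5-Aza-CdR alone and highest in controls by the mean, with differences from control of -0.92 and -0.57 for 5-Aza-CdR and -0.31 and -0.15 for the combination. The remaining probe, ILMN_1696035, stayed between 7.29 and 7.54.

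The interaction sets the combination against the sum of the single-drug changes on the log2 scale: it is 0 where the changes add up, positive where the combination is above the sum and negative where it is below. The 3 members that were lower with single drugs carried the largest positive values. A member below control with each single drug has a positive interaction unless the combination falls by the full sum or more. The values were 1.25 ± 0.18 for ERP29 ILMN_2251184, 1.23 ± 0.19 for GANAB and 1.22 ± 0.22 for MYDGF (log2, SE). The other ERP29 probes had 0.59 ± 0.15 (ILMN_2323048), close to CALR below, and 0.12 ± 0.13 (ILMN_1696035, near the median probe). The values of GANAB and MYDGF arose in different ways. GANAB was about as low with both drugs as with either, at -1.28 from control where the single drugs summed to -2.51, whereas MYDGF with both drugs was at -0.12 from control and the single drugs summed to -1.34.

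Among the 6 members that were higher with 5-Aza-CdR, 3 had an interaction within its standard error of 0, with 0.01 ± 0.13 for HSPA5, 0.10 ± 0.16 for HSP90B1 and 0.06 ± 0.16 for PDIA6. CALR had 0.58 ± 0.16, with -0.34 between clorgyline and control and 0.24 between the combination and 5-Aza-CdR, and PDIA4 had 0.34 ± 0.13. The CANX probes disagreed in sign, with -0.42 ± 0.19 for ILMN_1762825 and 0.11 ± 0.14 for ILMN_2401057. Of the 13 member probes 12 had a positive interaction, and the members' median was 0.12, where the median over all probes was -0.0016. The members' median was 0.35 over bright probes alone and up to 0.25 with 1 array left out. The way the drugs combined is among the values that chose the members, so no more is read from these signs and medians. As background, 0.0741% of all HL-60 probes had a called positive interaction and 0.0953% a called negative one, a call being an adjusted p under 0.05.

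**Figure D2:**
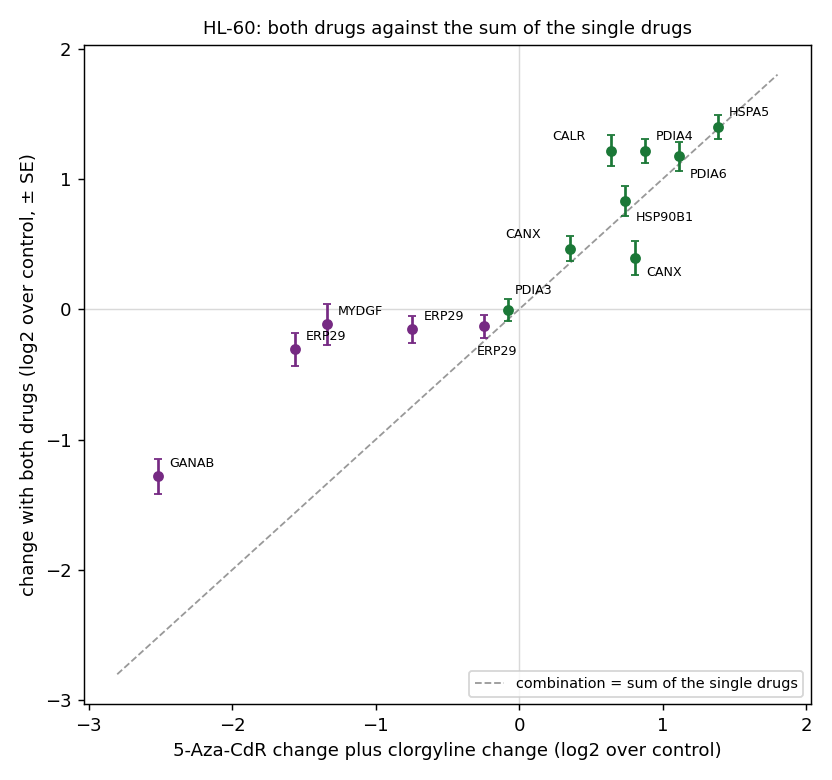
For each of the 13 member probes in HL-60, the change with both drugs (y axis, log2 over control, ± SE, 2 arrays a condition) against the sum of the 5-Aza-CdR and clorgyline changes (x axis, log2 over control). The dashed line is where the 2 are equal; purple points are GANAB, ERP29 and MYDGF and green points the other genes. GANAB (sum -2.51, both drugs -1.28), MYDGF and ERP29 ILMN_2251184 lie farthest above the line, and HSPA5 lies on it.

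Other genes of the same machinery were taken from 5 lists, with 1 probe per gene, the brightest, and were tested over all probes of the HL-60 arrays. These lists were written with earlier results of these data known. Of their 151 measured genes, 45 rose and 13 fell with the combination, 33 rose and 7 fell with 5-Aza-CdR, and 6 rose and 2 fell with clorgyline. Over all probes, 5.55% rose and 5.35% fell with the combination, 3.56% rose and 3.12% fell with 5-Aza-CdR, and 0.453% rose and 0.258% fell with clorgyline. These shares are not matched to the lists by signal. Bright probes, at least 1 above the median probe, read 39 of 50 other ER folding genes and 30 of 32 translocation and glycosylation genes. They also read 21 of 24 degradation genes, 22 of 24 cytosolic and mitochondrial chaperones and 13 of 21 sensors and factors. All probes include dim ones and 17110 without a gene name. The 3 comparisons share the 2 control arrays. Without 5-Aza-CdR replicate 2 the 40 calls with 5-Aza-CdR were 24, and without control replicate 1 they were 25.

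Of 50 other ER folding genes, 16 rose and 5 fell with the combination and 9 rose and 1 fell with 5-Aza-CdR, while clorgyline called 0 genes by limma, with 15 at an unadjusted p under 0.05. The list's median difference was 0.10 with the combination and 0.14 with 5-Aza-CdR, against -0.01 and -0.0035 over all genes. MANF, a secreted ER stress factor, had 14.28 and 14.69 with the combination, 14.46 and 14.51 with 5-Aza-CdR, 12.54 and 12.37 with clorgyline, and 12.85 and 12.68 in controls. It rose by 1.72 ± 0.13 with the combination (adjusted p = 3.85e-06) and by 1.72 ± 0.13 with 5-Aza-CdR (adjusted p = 4.78e-06, limma). SDF2L1, a partner of the ER Hsp70 system, rose by 1.38 with the combination and 1.42 with 5-Aza-CdR, and CRELD2, another secreted ER stress protein, by 1.40 and 1.12.

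HYOU1, the large Hsp70-like exchange factor for BiP, had 11.24 and 11.98 with the combination, 11.04 and 11.51 with 5-Aza-CdR, 10.47 and 10.49 with clorgyline, and 9.75 and 10.11 in controls. It rose by 1.68 ± 0.21 with the combination and 1.35 ± 0.21 with 5-Aza-CdR, and all 4 arrays with 5-Aza-CdR were above the other 4. The J-domain partners of BiP rose as well: DNAJB11 by 0.97 with the combination and 1.02 with 5-Aza-CdR, DNAJC3 by 0.83 with each, and DNAJB9 by 0.99 with the combination and 0.57 with 5-Aza-CdR. P4HB, the founding disulfide isomerase, rose by 0.66 with the combination (adjusted p = 0.00199) and differed by 0.33 with 5-Aza-CdR (adjusted p = 0.112). In the promoter table ERSE-II was found in the windows of HYOU1, with 2 matches, SDF2L1 and HERPUD1. In HYOU1 a UPRE match overlapped one of them. The ER stress response element was found in CRELD2, ERO1B and XBP1, and HERPUD1 had no probe with that gene name.

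Of 32 genes for translocation into the ER and for glycosylation, 11 rose and 0 fell with the combination, and 9 rose and 0 fell with 5-Aza-CdR (limma, with 16 and 18 at an unadjusted p under 0.05 in either direction). The genes named next, in this paragraph, were picked after their values were seen. The signal peptidase subunit SEC11C rose by 1.02 with the combination and 0.77 with 5-Aza-CdR, SEC61B of the translocation channel by 1.09 and 0.55, and DAD1 of the oligosaccharyltransferase by 1.01 and 0.70. Of 24 genes for ER-associated degradation, 6 rose and 3 fell with the combination and 3 rose and 2 fell with 5-Aza-CdR. DERL3, a retrotranslocation factor induced by ER stress, rose by 1.53 with the combination and 1.12 with 5-Aza-CdR, while MAN1B1, which trims mannose, fell by 0.85 and 0.57. The median difference with 5-Aza-CdR was 0.28 for translocation and glycosylation and 0.19 for degradation.

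The 21 sensors and factors of the unfolded protein response moved in both directions: 3 rose and 5 fell with the combination, 3 rose and 3 fell with 5-Aza-CdR, and 3 rose and 1 fell with clorgyline. DDIT3 (CHOP), a transcription factor of the PERK branch, had 10.43 and 10.33 with the combination, 9.91 and 10.33 with 5-Aza-CdR, 9.64 and 9.64 with clorgyline, and 8.92 and 9.08 in controls, and rose with all 3 treatments, by 1.38, 1.12 and 0.64. TRIB3, a pseudokinase that DDIT3 and ATF4 are known to activate, fell by 1.90 with the combination and differed by -1.57 with 5-Aza-CdR (adjusted p under the threshold in both), and was picked after its values were seen. ATF4 differed by -0.22 with the combination and -0.07 with 5-Aza-CdR and XBP1 by 0.23 with each, none of which passed the test. The XBP1 probe was not used to tell the spliced from the unspliced form.

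Of 24 cytosolic and mitochondrial chaperones, 9 rose and 0 fell with the combination (limma, 13 at an unadjusted p under 0.05 in either direction), 9 rose and 1 fell with 5-Aza-CdR and 3 rose and 0 fell with clorgyline (6 at an unadjusted p under 0.05). HSPA1B, the inducible cytosolic Hsp70, had 11.99 and 12.19 with the combination, 11.26 and 11.24 with 5-Aza-CdR, 13.40 and 13.35 with clorgyline, and 10.79 and 10.82 in controls. Clorgyline alone raised it most, by 2.57 ± 0.09, where HSPA5 differed by -0.01. HSPA1B has a near-identical neighbour, HSPA1A, and the probe may read both.

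The interaction was called for 3 of the 151 genes. HSPA1B was below the sum of the single drugs, with an interaction of -1.73 ± 0.13 (adjusted p = 2.67e-04, limma). PPP1R15A (GADD34), which directs the phosphatase that ends the PERK signal, had 12.57 and 12.68 with the combination, 12.94 and 12.84 with 5-Aza-CdR, 13.64 and 13.40 with clorgyline, and 12.18 and 12.07 in controls, with an interaction of -1.66 ± 0.14 (adjusted p = 2.87e-04). That call was lost with all 24 arrays in 1 fit (adjusted p = 0.0571). FKBP2, a prolyl isomerase of the ER, had 9.84 and 10.11 with the combination, 9.38 and 9.15 with 5-Aza-CdR, 8.92 and 9.17 with clorgyline, and 9.38 and 9.56 in controls. Its interaction was 1.14 ± 0.17 (adjusted p = 0.0279), and the call was lost when any 1 of 6 of the 8 arrays was left out, all but 5-Aza-CdR replicate 1 and combination replicate 1, with adjusted p up to 0.182.

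**Figure D3:**
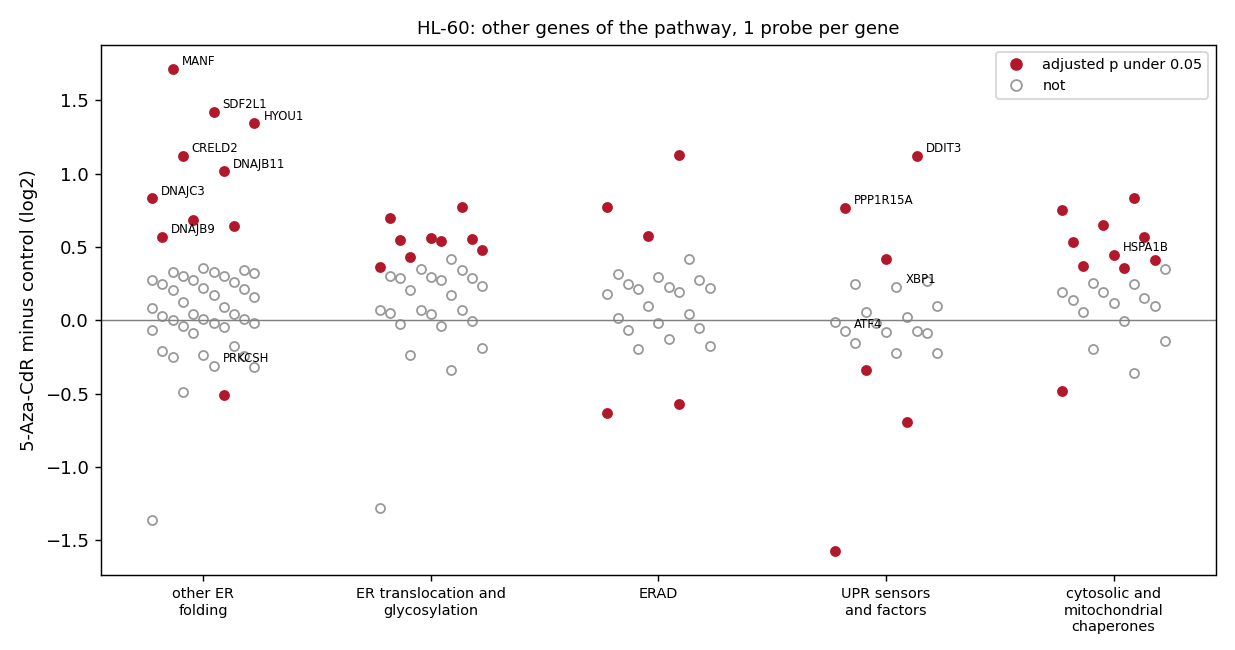
Difference between 5-Aza-CdR and control in HL-60 (y axis, log2) for the 151 other genes in 5 lists (x axis), each point 1 gene by its brightest probe. Filled red points had an adjusted p under 0.05, open grey points did not. In ER translocation and glycosylation 9 genes rose and 0 fell, while in the sensors and factors of the unfolded protein response (UPR) 3 rose and 3 fell; ERAD stands for ER-associated degradation.

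Myeloid genes moved with the same treatments. Of 9 measured HL-60 markers, 5 rose and 1 fell both with the combination and with 5-Aza-CdR. Over all probes, 5.55% rose and 5.35% fell with the combination, and 3.56% rose and 3.12% fell with 5-Aza-CdR. None of the 9 was called with clorgyline by limma, with 5 at an unadjusted p under 0.05. With clorgyline PRTN3 averaged 12.04 against 12.56 in controls and LYZ 7.56 against 8.01. AZU1 averaged 11.65 with clorgyline against 11.16 in controls, and CTSG 14.58 against 14.16. The granule protease genes ELANE and PRTN3 rose by 2.65 and 1.54 with the combination and by 2.38 and 1.35 with 5-Aza-CdR, LYZ by 1.60 and 2.31, and MYB fell by 0.63 and 0.37. ELANE was at 7.42 in controls, near the median probe of 7.53, and LYZ at 8.01, so the sizes of their rises depend on background. PRTN3 was at 12.56 in controls. The mean log2 level over the 9 markers was 12.06 and 12.24 with the combination, 11.91 and 12.19 with 5-Aza-CdR, 11.36 and 11.43 with clorgyline, and 11.37 and 11.47 in controls. The part of these genes, or of the cells that express them, in the rise of the ER genes was not tested. In bulk RNA a change in the make-up of the culture and a change in RNA per cell cannot be told apart.

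Likeness to the members was measured as the Pearson correlation, over the 8 HL-60 arrays, with the mean of the members by their brightest probes, each centred on its own mean. That mean takes in the members that were higher with 5-Aza-CdR, those that were lower, and PDIA3, so it is the pattern of neither group alone. Among 7124 genes outside the lists with a bright probe, the 5 most alike were IL18RAP, TRAPPC2L, SDHAF3, MGAT3 and ANKRD35, with r of 0.979 to 0.982. Their changes with 5-Aza-CdR ran from 0.08 for SDHAF3 to 0.98 for IL18RAP. The 8 arrays are 4 pairs, so that these correlations mostly follow 4 condition means and are a description.

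On the arrays labelled T24 HSPA5 with the combination had the largest difference from control of the member probes, opposite in direction to the combination in HL-60. In HL-60 HSPA5 had differed by 1.39 with 5-Aza-CdR alone and by -0.01 with clorgyline alone. HSPA5 had 9.63 and 9.59 with the combination, 10.70 and 10.62 with 5-Aza-CdR, 9.76 and 9.69 with clorgyline, and 10.73 and 10.38 in controls. The 4 arrays with clorgyline were lower than the 4 without it. HSPA5 fell by 0.95 ± 0.11 with the combination (adjusted p = 0.0102) and differed by -0.83 ± 0.11 with clorgyline (adjusted p = 0.0541, which missed the threshold) and by 0.10 ± 0.11 with 5-Aza-CdR (adjusted p = 0.906, limma). The call with the combination was lost without combination replicate 2 (adjusted p = 0.0633).

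With the combination 2 of the 13 member probes were called on the T24-labelled arrays, both lower, where 1.38% of all probes were called lower. The other was CANX ILMN_2401057, with 8.66 and 8.62 with the combination, 8.94 and 8.92 with 5-Aza-CdR, 8.94 and 8.98 with clorgyline, and 8.84 and 8.86 in controls. Its difference from control was small, -0.21 ± 0.03 (adjusted p = 0.0151), and the call was lost without either control array or without combination replicate 2 (adjusted p up to 0.188). The same probe had the only called interaction among the members, -0.40 ± 0.04 (adjusted p = 0.0198), where 0.0529% of all probes had a called negative interaction. That call was lost when any 1 of 7 of the 8 arrays was left out, all but combination replicate 1, with adjusted p up to 0.138.

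With 5-Aza-CdR 0 of the 13 probes were called on the T24-labelled arrays (limma, 2 at an unadjusted p under 0.05), and with clorgyline 0 were called (4 at an unadjusted p under 0.05), where 0.119% and 0.373% of all probes were called in either direction. PDIA6 had 8.84 and 8.88 with the combination, 9.09 and 9.08 with 5-Aza-CdR, 9.39 and 9.21 with clorgyline, and 9.01 and 9.08 in controls, with an interaction of -0.48 ± 0.08 that did not pass the test (adjusted p = 0.132). GANAB stayed within 9.29 and 9.56 on all 8 arrays, and its difference from control was between -0.08 and 0.07 with each treatment. HSP90B1 ranged from 12.19 to 12.62 and overlapped control with each treatment. The interaction was negative in 11 of the 13 probes, with a median of -0.17 where the median was -0.0026 over all probes and -0.045 over bright ones. The share of all probes with a negative interaction was not counted, so no more is read from this count. Among the 11, PDIA3 (-0.01) and ERP29 ILMN_1696035 (-0.03) were near the median probe. Of the 151 other genes, 11 rose and 6 fell with the combination, where 1.71% of all probes rose and 1.38% fell, and 2 rose and 1 fell with clorgyline. As in HL-60, the shares over all probes are not matched to the listed genes by signal. With 5-Aza-CdR 0 of the 151 were called by limma, with 28 at an unadjusted p under 0.05.

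**Figure D4:**
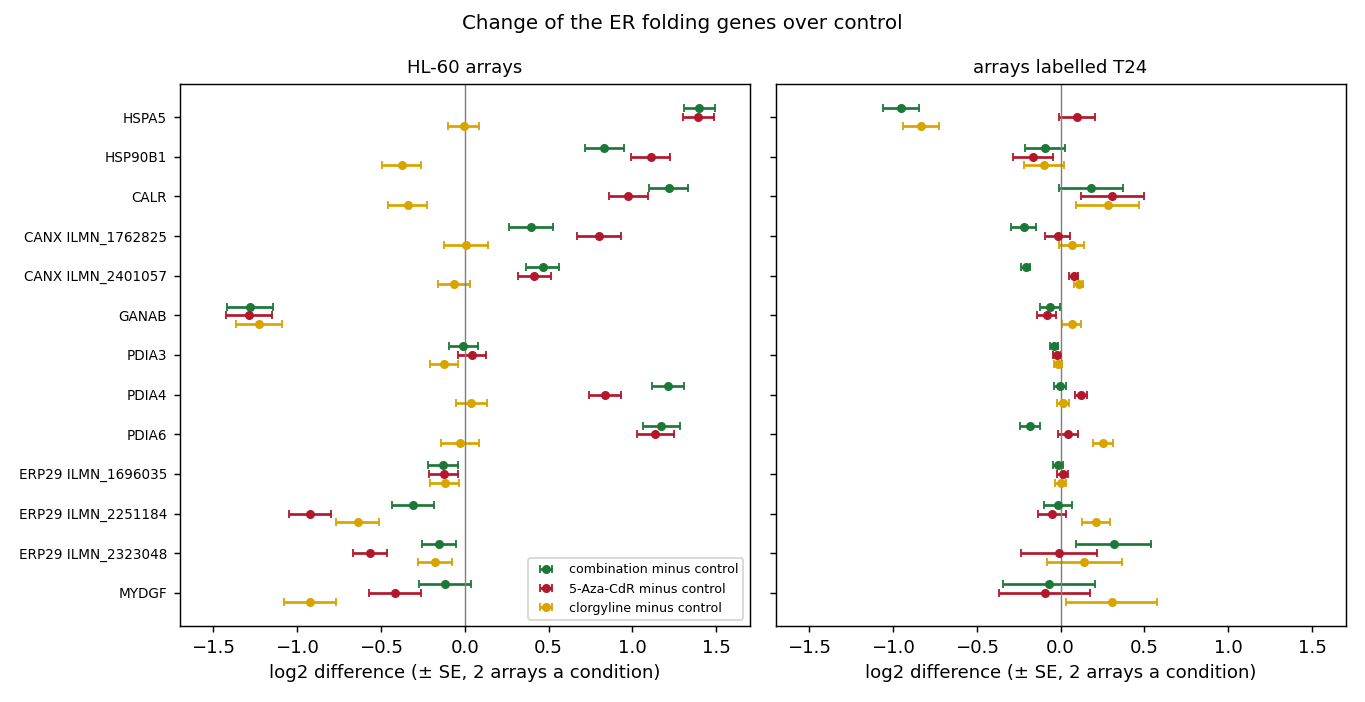
Change over control of the 13 member probes (rows) in HL-60 (left) and on the arrays labelled T24 (right), in log2 units on the x axis, as estimate ± SE with 2 arrays a condition; green is the combination, red 5-Aza-CdR and yellow clorgyline. HSPA5 is at 1.40 with the combination in HL-60 and at -0.95 on the arrays labelled T24, and GANAB is below control with all 3 treatments in HL-60.

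On the treated HCT116-labelled arrays 0 of the 13 probes were called in any of 3 comparisons by limma. Over all probes 0% were called between the combination and 5-Aza-CdR, with 2464 of the 47231 at an unadjusted p under 0.05, 0.330% between the combination and clorgyline, and 0.407% between clorgyline and 5-Aza-CdR. At an unadjusted p under 0.05 the members had 0 probes in the first comparison, 0 in the second and 1 in the third, PDIA4, with a difference of -0.10. HSPA5 had 9.01 and 9.46 with the combination, 9.27 and 9.57 with 5-Aza-CdR, and 9.42 and 9.47 with clorgyline, and the 3 pairs overlapped. The member differences ran from -0.52 (HSP90B1, combination against clorgyline, ± 0.24) to 0.35 (HSP90B1, clorgyline against 5-Aza-CdR, ± 0.24). The fit behind these standard errors included the HCT116-labelled controls, and the largest was 0.43, for ERP29 ILMN_2323048. The standard deviation of that probe was 0.95 in those controls. It was 0.37 with the combination, 0.06 with 5-Aza-CdR and 0.18 with clorgyline. Standard errors from the treated arrays alone are not given here. With 2 arrays a condition the standard errors of this fit leave room for some of the smaller HL-60 differences. For ERP29 ILMN_2323048 the combination and 5-Aza-CdR differed by 0.41 in HL-60 and by 0.15 ± 0.43 here. The large HL-60 differences between combination and clorgyline were not seen here. HSPA5 had 1.41 in HL-60 and -0.21 ± 0.18 here, CALR 1.56 and -0.17 ± 0.22, and PDIA6 1.20 and 0.05 ± 0.19. HSP90B1 had 1.21 and -0.52 ± 0.24, and PDIA4 1.17 and 0.01 ± 0.04. The difference between the lines was not tested, and the treatment labels here are open to doubt.

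Since the 2 HCT116-labelled controls carried other markers than the treated arrays, line and treatment cannot be told apart in a comparison with them, and none was tested.

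**Figure D5:**
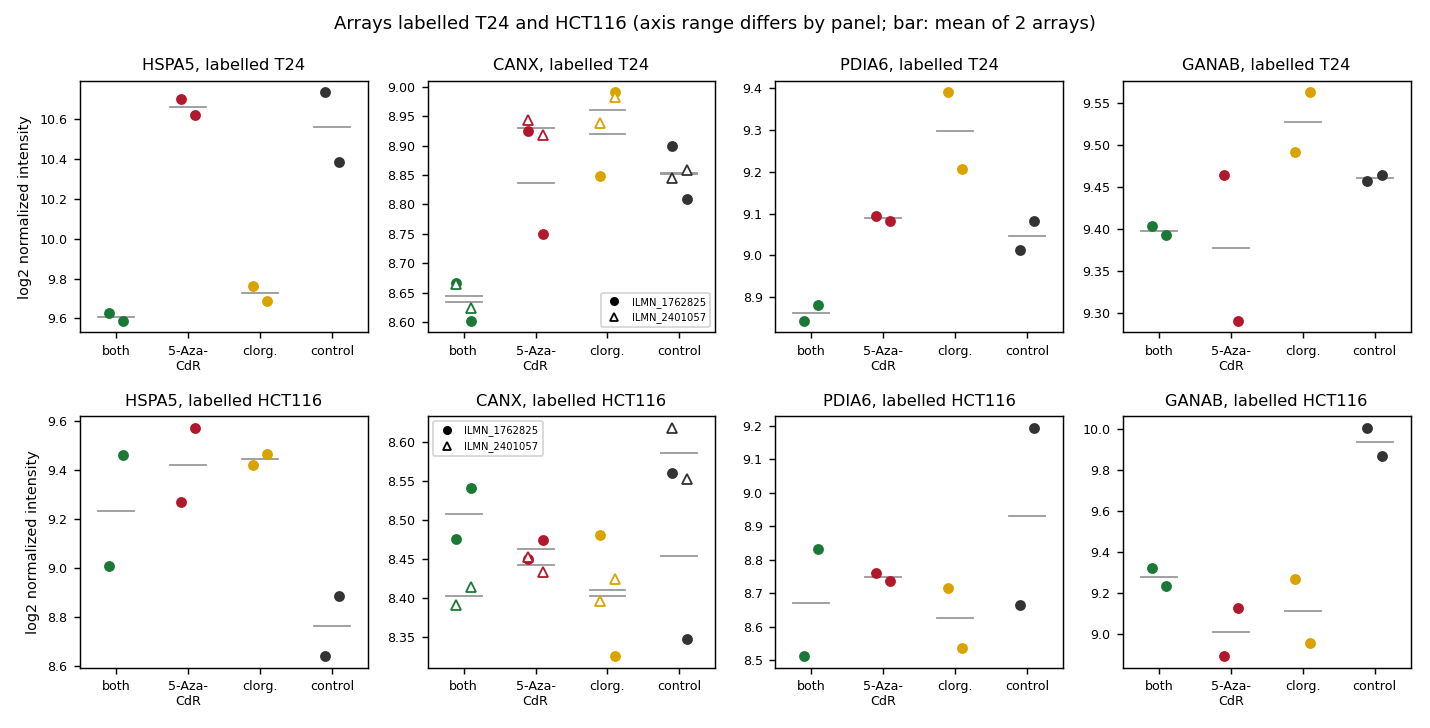
Levels of HSPA5, CANX, PDIA6 and GANAB on the arrays labelled T24 (top) and HCT116 (bottom), in log2 normalized intensity on the y axis, for both drugs, 5-Aza-CdR, clorgyline and control on the x axis; points are arrays, shapes are probes, grey bars are means of 2 arrays. On the arrays labelled T24, HSPA5 is at 9.59 to 9.76 with clorgyline present and at 10.38 to 10.73 without, and the HCT116-labelled controls carried other markers than the treated arrays.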

How the data were processed

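RNA was hybridized to 24 Illumina HumanHT-12 V4 BeadChip arrays. The deposited values are log2 intensities that the authors normalized by robust spline normalization with lumi, version 2.6.0 for T24 and HCT116 and 2.8.0 for HL-60 per the submitters' processing notes. Background correction and probe filtering are not given in the sources used here. Within a line the ranked values of the 8 arrays differed by at most 0.0052, so normalization was within the line, and levels were not tested across lines. A level is therefore relative to the other probes of its array. Precision depends on signal over background and on the number of arrays, 2 a condition.

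Probes were named from GEO's platform annotation: 30113 of the 47231 had 1 gene, 8 had several and 17110 had none. In HL-60, 2 probes with missing values were left out. Condition means were estimated for each line separately (limma 3.58.1, R 4.3.3), with 4 residual degrees of freedom and Benjamini-Hochberg adjustment over all probes, and a call is an adjusted p under 0.05. The methods' limits, a p under 0.01 before adjustment with a change of more than 2-fold, were an alternative, as were bright probes only (at least 1 above the median probe), quantile normalization, all 24 arrays in 1 fit, a robust spread with a trend, a replicate block and leaving out each array. The fit was tested on simulated data.

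The members, the gene lists and the rule for named genes were chosen with earlier results of these data known. The rule named all members, 13 set genes and up to 4 genes per list with a called HL-60 interaction. Promoter windows came from RefSeq (GRCh38.p14). The lists hold genes of ER folding, translocation and glycosylation, ER-associated degradation, the unfolded protein response, and cytosolic and mitochondrial chaperones. AHSA1, CD33, HERPUD1 and SEC61G had no probe of that name.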

Additional observations from a re-analysis of the deposited data

Results flagged for a closer look

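These member probes were picked out because all treated arrays moved away from both controls in 1 direction in HL-60 and in the opposite direction on the arrays labelled T24. The difference between the lines was not tested, and each line was normalized separately and, for 5-Aza-CdR, dosed differently.

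With the combination, HSPA5 differed from control by 1.40 in HL-60 and by -0.95 on the arrays labelled T24 (log2). PDIA6 differed by 1.17 in HL-60 and -0.18 on the arrays labelled T24. Both CANX probes had the same pattern, ILMN_1762825 with 0.39 in HL-60 and -0.22 on the arrays labelled T24, and ILMN_2401057 with 0.46 and -0.21 in that order. On the arrays labelled T24, HSPA5 and CANX ILMN_2401057 passed the test. PDIA6 (adjusted p = 0.217, limma) and CANX ILMN_1762825 (adjusted p = 0.233) did not.

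With clorgyline alone, GANAB differed from control by -1.23 in HL-60 and by 0.07 on the arrays labelled T24, and MYDGF by -0.92 and 0.31. ERP29 ILMN_2251184 differed by -0.64 in HL-60 and 0.21 on the arrays labelled T24, and CALR by -0.34 and 0.28. None of these clorgyline differences on the arrays labelled T24 passed the test. The adjusted p was 0.813 for GANAB, 0.822 for MYDGF, 0.471 for ERP29 ILMN_2251184 and 0.727 for CALR (limma).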

How the results depend on the processing

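No value reversed its direction under any alternative tried. For single genes a reversal could show only when an array was left out, because the other alternatives left the differences almost unchanged. Over those, HSPA5 with 5-Aza-CdR in HL-60 differed from control by 1.39253 to 1.39274. Among the values for single genes, 494 kept their call or, where untested, moved by no more than the spread between arrays. A further 33 kept their direction and lost the call, and 26 untested HL-60 values moved by more than that spread. On the arrays labelled T24, the 1 called member interaction became 0 with bright probes, with all 24 arrays, with a robust spread, with the methods' unadjusted p and fold limits and with the replicate block, and was 0 to 1 when single arrays were left out. The 2 member calls with the combination became 1 (HSPA5) with bright probes, all 24 arrays or a robust spread and 0 with the methods' limits, and were 0 to 2 with single arrays left out. The 0 member calls with clorgyline became 1 (HSPA5) with bright probes, with all 24 arrays and with a robust spread. Among the 151 other genes in HL-60, the 3 called interactions became 8 with all 24 arrays, PPP1R15A then having an adjusted p of 0.0571, and were 2 to 5 with single arrays left out. The 40 calls with 5-Aza-CdR became 9 and the 58 with the combination 12 with the methods' limits, and were 24 to 42 and 40 to 60 with single arrays left out. These 2 counts and their alternatives were added after seeing the data. The members' median HL-60 interaction, 0.12, was 0.35 with bright probes and 0.12 to 0.25 with single arrays left out. In the replicate check, replicate 1 minus replicate 2 was taken within each condition over bright probes. These differences correlated between conditions from -0.16 to 0.39 in HL-60, over 6 pairs of conditions, which does not exclude a shared replicate effect. The numbers were not taken as pairs in the main fit, and the replicate block changed no other call among the members. Leaving out the 2 HCT116-labelled controls left 0 member calls there. For probes near the median probe, such as PDIA3, low signal limits what could be seen.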
